A study of Mus musculus with 16 samples.

Results

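The 10 genes Sparc, Sparcl1, Thbs1, Thbs4, Gpc4, Gpc6, Chrdl1, Megf10, Mertk and Nrcam encode proteins through which astrocytes act on synapses, and they were taken by their gene symbol out of the 24060 genes listed for each of 16 RNA sequencing libraries. All 10 symbols were found in all 16 libraries. The mice were C57BL/6J, aged 3 months. Both males and females were used according to the methods, but the sex behind each library is not stated. All of the mice, controls included, carried Aldh1l1-cre/ERT2 together with the RiboTag allele and had received tamoxifen at 2 months of age. With RiboTag, cells with active Cre make the ribosomal protein Rpl22 with an HA tag, and Aldh1l1 drives Cre in astrocytes, so that an antibody against HA pulls astrocyte ribosomes and their bound mRNA from homogenized tissue. From the somatosensory cortex, RNA of this immunoprecipitate (IP) and RNA of the cleared lysate of all cells (INPUT) were sequenced from naïve mice, which stayed in the home cage, and from stressed mice, which swam in water for 20 min and rested for 90 min. IP and INPUT had 4 libraries each from naïve and 4 each from stressed mice, and replicates are called here by their library numbers, 1 to 16. The same mice gave IP and INPUT, but which libraries share a mouse is not stated, so the fractions are not independent of each other.

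Astrocytes shape synapses with secreted and contact proteins and also remove synapses by engulfing them. Thrombospondins (Thbs1, Thbs4) are matrix glycoproteins that promote the formation of excitatory synapses through the α2δ subunit of calcium channels, hevin (Sparcl1) bridges neurexin and neuroligin across the synapse, and its relative Sparc opposes hevin. Glypicans 4 and 6 (Gpc4, Gpc6) are heparan sulfate proteoglycans that bring AMPA receptors to young synapses, and chordin-like 1 (Chrdl1) promotes their maturation. Megf10 and Mertk are receptors for the engulfment of synaptic material, and Nrcam is an adhesion molecule of the L1 family at contacts between cells.

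Values are CPM, the fragments counted on a gene in every 1000000 fragments counted on genes of that library. Between 16392876 and 25814364 reads were counted on genes per library, and 3 reads were at most 0.183 CPM. All of 10 astrocyte markers were higher in naïve IP than in naïve INPUT (limma, adjusted p under 0.05), with log2 ratios from 2.19 to 4.50, whereas 8 of 8 neuronal, 8 of 8 oligodendrocyte lineage, 6 of 6 microglial and 5 of 5 endothelial markers were lower. Of 4 mural cell markers tested, 3 were lower and Pdgfrb was higher (log2 ratio 2.37). Among all genes tested, 23.7% were higher and 64.0% lower. No marker was at 0 reads in a whole group. Between stress IP and naïve IP, the astrocyte marker Sox9 passed the threshold (log2 fold change −0.65) and the other 9 astrocyte markers did not. The summed level of the 5 endothelial markers was 9.08 to 11.0 CPM in stress IP and 11.2 to 15.8 CPM in naïve IP. Single genes without overlap were 5.00% of those tested. Of the endothelial markers 3 could be tested in IP, and 0 passed the threshold. Sums of the other cell types overlapped between stress IP and naïve IP. In bulk libraries, fewer cells of a type and less RNA per cell cannot be told apart. The source of the endothelial RNA in IP was not tested.

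The levels of the 10 genes spanned a wide range. Divided by the length of the exons (union of GENCODE exons, in kb), the mean level in naïve IP was 7943 CPM per kb for Sparcl1, 161 for Mertk, 134 for Sparc, 111 for Nrcam, 55.1 for Megf10, 50.2 for Chrdl1, 18.6 for Gpc6, 7.43 for Gpc4, 7.01 for Thbs4 and 0.509 for Thbs1. Libraries of the neighbours Mertk and Sparc, Sparc and Nrcam, Megf10 and Chrdl1, and Gpc4 and Thbs4 overlapped, and the other neighbours in this order did not. In stress IP, Sparc (162 CPM per kb) stood above Mertk (156 CPM per kb), again with overlapping libraries, and the other genes kept their places. In naïve INPUT the order was Sparcl1 (1023 CPM per kb), Nrcam (58.1), Sparc (25.03), Mertk (14.3), Chrdl1 (4.31), Megf10 (3.69), Gpc6 (1.93), Gpc4 (1.44), Thbs1 (0.719) and Thbs4 (0.557). Neighbours overlapped there for Chrdl1 and Megf10 and for Thbs1 and Thbs4. Nrcam therefore stood at place 4 in naïve IP and at place 2 in naïve INPUT on this scale per length. In CPM without division by length, its mean was below that of Sparcl1 alone in both, at 1483 and 776 CPM.

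**Figure D1:**
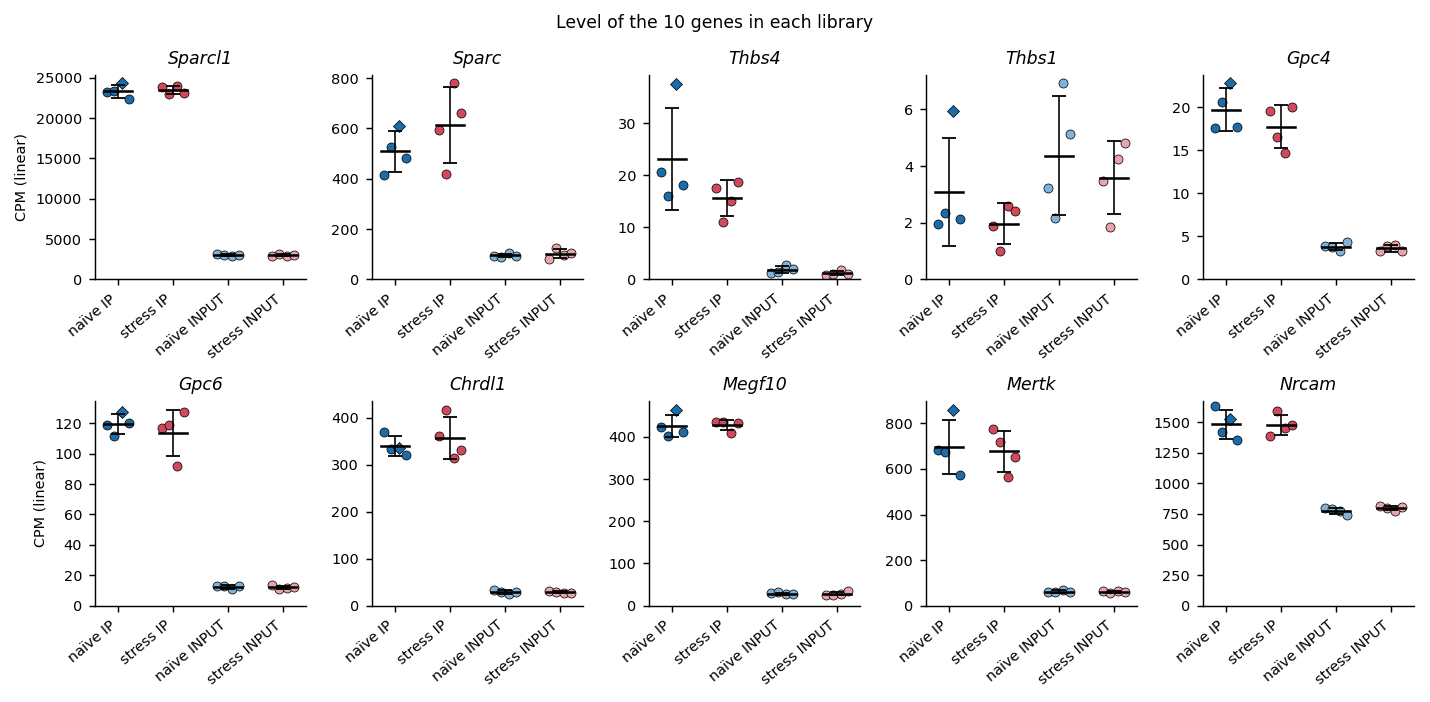
Level of each of the 10 genes in CPM (linear axis from 0, a different range in each panel) in every library, by fraction and treatment. Points are libraries, bars the mean and SD of 4, and the diamond marks naïve IP replicate 11. In 9 panels both IP groups lie above both INPUT groups, and for Thbs1 all 4 groups overlap.

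The first comparison asked which of these genes were found on astrocyte ribosomes above their share in whole cortex. Of the 10 genes, 9 were higher in naïve IP than in naïve INPUT and 0 were lower (limma on log2(CPM + 0.1), Benjamini-Hochberg adjusted p under 0.05 over 13339 genes), where 23.7% of all genes tested were higher and 64.0% lower. The median log2 ratio of the 10 genes was 3.11, and that of all genes was −0.64. For these 9 genes the IP and INPUT libraries did not overlap, which was also so for 83.7% of all genes, and the two-sided exact permutation test gave the smallest p that 4 against 4 libraries allow, 0.029. Thbs1 was the exception. After stress the picture was the same, with 9 genes higher (23.6% of 13333 genes tested), Thbs1 lower (62.5% of genes), 9 genes without overlap (81.4% of genes) and a median log2 ratio of 3.11. An IP level is relative to its whole library, and rescaling by the median ratio moved the median of all genes in naïve mice from −0.64 to 0.00 (log2). It also moved the shares of all genes to 42.0% higher and 42.2% lower, and quantile normalization moved them to 42.3% and 41.1%. Under both, the 9 genes were still higher in IP.

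**Figure D2:**
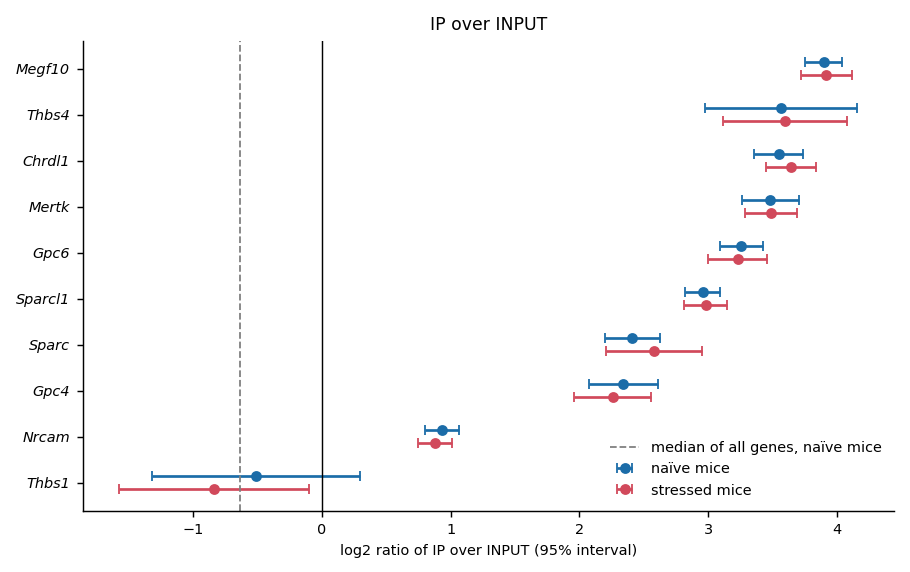
Log2 ratio of IP over INPUT for each gene (x axis) in naïve (blue) and stressed (red) mice, with 95% intervals from limma. The dashed line is the median of all genes in naïve mice, −0.64. Megf10 has the highest ratio at 3.90 in naïve mice, Nrcam is near 0.93 and the interval of Thbs1 in naïve mice spans 0.

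The thrombospondins split. Thbs4 (chromosome 13 of GRCm38, 92751590 to 92794818, minus strand) had 20.6, 16.0, 37.5 and 18.1 CPM in naïve IP replicates 2, 8, 11 and 13, and 1.24, 1.35, 2.74 and 1.98 CPM in naïve INPUT replicates 3, 7, 14 and 16. Every IP library was above every INPUT library, although INPUT had only 22 to 55 reads per library on this gene. The log2 ratio was 3.57 (standard error 0.27, adjusted p = 2.6e-08 from limma), an 11.9-fold difference.

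Thbs1 (chromosome 2, 118111876 to 118127133, plus strand) was the least abundant of the 10 genes in IP. It had 1.96, 2.33, 5.95 and 2.13 CPM in naïve IP and 3.22, 2.18, 6.93 and 5.14 CPM in naïve INPUT, in the same order of replicates. The groups overlapped, and the IP library with 5.95 CPM was above 3 of the 4 INPUT libraries. The log2 ratio was −0.51 (95% interval −1.32 to 0.30), with an adjusted p of 0.21 by limma and p = 0.31 by the exact permutation test. In stressed mice Thbs1 had 1.87, 0.986, 2.60 and 2.41 CPM in IP replicates 4, 5, 6 and 15 and 3.48, 1.84, 4.25 and 4.80 CPM in INPUT replicates 1, 9, 10 and 12. There the log2 ratio was −0.84 (standard error 0.34, adjusted p = 0.035 from limma), while the groups still overlapped (exact permutation p = 0.11). This call was lost without any of 5 single libraries, and the sign of the ratio turned to 0.24 under quantile normalization. In naïve mice the ratio was 0.11 by the median ratio and 0.46 by quantile normalization, and it passed the threshold without naïve IP replicate 11 (−0.87, adjusted p = 0.017 from limma). A noncoding gene on the opposite strand, Gm29233, shares 208 of the exon bases of Thbs1 (3.42%) and is not among the genes counted, and whether the counting used strand is not stated.

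Of the other thrombospondins, Thbs2 was lower in naïve IP (log2 ratio −1.38, the lowest of the family), and Thbs3 had a log2 ratio of −0.26 (adjusted p = 0.27 from limma), which turned to 0.36 by the median ratio and 0.70 by quantile normalization. Comp, also known as thrombospondin 5, was below the filter of 1 CPM. Among 4 genes of the α2δ family, to which the neuronal thrombospondin receptor belongs, 2 were lower and 1 was higher in naïve IP. On the log2 scale they ran from −3.45 for Cacna2d1 to 0.37 for Cacna2d2. Beside this and each list below stand the shares over all genes tested, 23.7% higher and 64.0% lower. By the median ratio these shares were 42.0% and 42.2%.

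Sparcl1 was the most abundant of the 10 genes in every library. Hevin mRNA (Sparcl1, chromosome 5, 104079111 to 104113733, minus strand) had 23253, 23386, 24342 and 22338 CPM in naïve IP and 3109, 2972, 2883 and 3059 CPM in naïve INPUT. Its libraries were close to each other, with a coefficient of variation of 3.51% in naïve IP and 3.31% in naïve INPUT. The log2 ratio was 2.96 (standard error 0.06, adjusted p = 4.6e-14 from limma), a 7.76-fold difference. Under quantile normalization, which sets the highest values of all libraries equal, the log2 ratio of Sparcl1 was 0.96. Sparc (chromosome 11, 55394500 to 55423183, minus strand) had 415, 525, 611 and 483 CPM in naïve IP and 93.9, 87.5, 105 and 92.5 CPM in naïve INPUT. The groups were far apart, and the spread within IP was larger than for Sparcl1, with a coefficient of variation of 16.1%. The log2 ratio of Sparc was 2.41 (standard error 0.10, adjusted p = 2.8e-11 from limma).

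The SPARC family divided evenly, with 4 of 8 genes higher in naïve IP and 4 lower, where 23.7% of all genes were higher and 64.0% lower. By the median ratio it kept 4 and 4, close to the 42.0% and 42.2% of all genes. Sparcl1 was at the top and the proteoglycan gene Spock3 at the bottom, with a log2 ratio of −4.27. Of 6 genes of the neurexin and neuroligin families, which include the synaptic partners of hevin, 2 were higher and 3 lower in naïve IP. Nrxn3 had the lowest log2 ratio, −2.94.

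Both glypicans of the set were higher in IP. Gpc6 (chromosome 14, 116925315 to 117976544, plus strand) had 119, 112, 127 and 119.9 CPM in naïve IP and 13.2, 13.0, 10.7 and 12.9 CPM in naïve INPUT, a log2 ratio of 3.26 (standard error 0.08, adjusted p = 1.4e-13 from limma). Gpc4 (chromosome X, 52053021 to 52165252, minus strand) had 17.6, 20.6, 22.8 and 17.7 CPM in naïve IP and 3.90, 3.71, 3.29 and 4.32 CPM in naïve INPUT, a log2 ratio of 2.34 (standard error 0.12, adjusted p = 4.3e-10 from limma). Per kb of exon Gpc6 was above Gpc4 in every library of both fractions. In the family of 6 glypicans, 4 were higher and 2 lower in naïve IP. Gpc5 was highest (log2 ratio 3.62, from a mean of 52.3 CPM in INPUT to 642 CPM in IP), and Gpc3 was lowest (−1.08, but 0.10 by quantile normalization). The list of glypican receptors and effectors, mostly neuronal genes, had 1 of 9 genes higher and 8 lower in naïve IP (7 lower by the median ratio). It ran from the receptor phosphatase Ptprf (1.26) to the neuronal pentraxin Nptx2 (−4.34).

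Chrdl1, an antagonist of bone morphogenetic proteins (chromosome X, 143285674 to 143394262, minus strand), had 369, 334, 335 and 321 CPM in naïve IP and 34.3, 28.0, 24.6 and 29.5 CPM in naïve INPUT. The lowest IP library was far above the highest INPUT library, and the log2 ratio was 3.55 (standard error 0.09, adjusted p = 1.7e-13 from limma), an 11.7-fold difference. Its relative Chrd was lower in naïve IP (log2 ratio −1.44), and the third chordin, Chrdl2, was below the filter. Of 5 other secreted factors with a role at synapses, 3 were higher and 2 lower in naïve IP, with Tgfb2 at 2.83 and Tgfb3 at −1.89.

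Both phagocytic receptors were among the genes most enriched in IP, as were Thbs4 and Chrdl1, whose ratios 64 and 71 genes exceeded. Megf10 (chromosome 18, 57133090 to 57297467, plus strand) had 424, 403, 463 and 412 CPM in naïve IP and 29.3, 31.2, 26.4 and 27.0 CPM in naïve INPUT. Its log2 ratio of 3.90 (standard error 0.07, adjusted p = 1.2e-14 from limma) was exceeded by 18 of the 13339 genes tested. Mertk (chromosome 2, 128698956 to 128802894, plus strand) had 683, 675, 859 and 575 CPM in naïve IP and 58.4, 57.8, 69.8 and 61.5 CPM in naïve INPUT, a log2 ratio of 3.48 (standard error 0.10, adjusted p = 8.8e-13 from limma), which 89 genes exceeded. For both genes, each IP library was above each INPUT library.

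Around Megf10, 7 of 14 genes of the engulfment pathway were higher in naïve IP and 6 lower. Megf10 had the highest ratio, and C1qb, a chain of the complement protein that tags synapses and that microglia make, the lowest (−4.67). In the list of TAM receptors (Tyro3, Axl, Mertk), their ligands and integrin partners, 7 of 9 genes were higher and 2 lower in naïve IP. Mfge8, a bridge between phosphatidylserine and integrins, was highest at 3.59, and Tyro3 was lowest at −2.91. Of the TAM receptors, Tyro3 thus stood below 0, while Mertk and Axl (log2 ratio 3.41) stood above it.

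**Figure D3:**
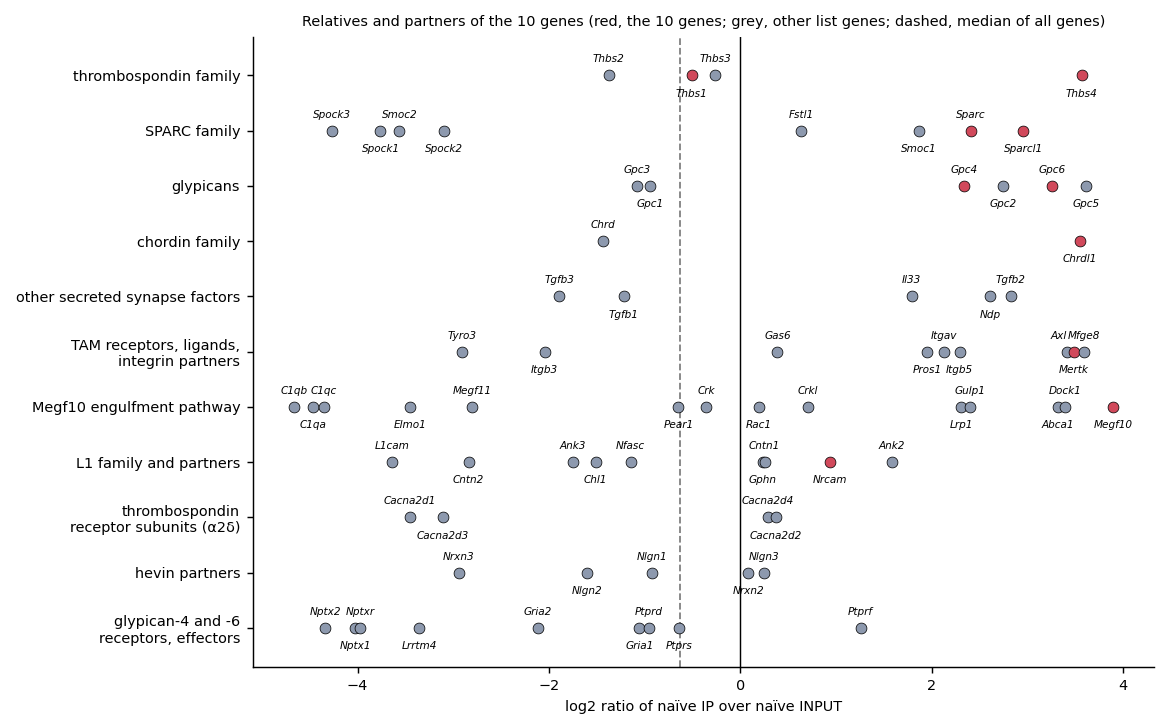
Log2 ratio of naïve IP over naïve INPUT (x axis) for genes tested in each list of relatives and partners (rows), with the 10 genes in red and other list genes in grey. The dashed line is the median of all genes, −0.64. Within single families members lie on both sides of 0, as for Thbs4 at 3.57 and Thbs2 at −1.38, and receptors for glypicans lie mostly to the left.

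Nrcam had the smallest ratio of the 9 enriched genes. Nrcam (chromosome 12, 44328885 to 44601964, plus strand) had 1632, 1419, 1526 and 1356 CPM in naïve IP and 796, 789, 774 and 745 CPM in naïve INPUT. The groups did not overlap, and the log2 ratio was 0.93 (standard error 0.06, adjusted p = 5.2e-09 from limma), a 1.91-fold difference. In the L1 family with its partners, 4 of 9 genes were higher and 5 lower in naïve IP. Ank2, an ankyrin, was highest at 1.59, and L1cam was lowest at −3.64.

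The second comparison asked whether the swim changed these genes on astrocyte ribosomes. In stress IP against naïve IP, 0 of the 10 genes passed the threshold (limma), against 0.440% of the 12501 genes tested. At an unadjusted p under 0.05 it was also 0 of 10, where 8.27% of all genes passed. limma-voom on the reads recovered from the values also called 0, and 0 at an unadjusted p under 0.05. For all 10 genes the stress and naïve libraries overlapped, as they did for all but 5.00% of genes. The median log2 fold change was −0.02 for the 10 genes and 0.00 for all genes. The median size of the change, sign aside, was 0.07 and 0.09.

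Thbs1 and Thbs4 had the largest differences in IP, both towards lower values after stress. Thbs4 had 17.6, 10.9, 15.1 and 18.7 CPM in stress IP, a range that holds 2 of the 4 naïve values, while naïve replicate 11 stood above all others at 37.5 CPM. The log2 fold change was −0.51 (95% interval −1.03 to 0.02), with an adjusted p of 0.63 by limma and p = 0.17 by the exact permutation test. It was −0.25 without naïve IP replicate 11. The log2 fold change of Thbs1 was −0.55 (95% interval −1.36 to 0.25), with an adjusted p of 0.75 by limma and p = 0.40 by the exact permutation test. It was −0.19 without naïve IP replicate 11. Sparc pointed upwards, with 593, 417, 779 and 660.2 CPM in stress IP, a range that holds all but the lowest naïve value. Its log2 fold change was 0.25 (95% interval −0.12 to 0.61, adjusted p = 0.76 from limma). It was 0.12 without stress IP replicate 6, 0.15 without naïve IP replicate 2 and 0.42 without stress IP replicate 5.

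For the other genes the intervals were narrower. Sparcl1 had 23877, 22990.3, 24025 and 23150.3 CPM in stress IP, with a fold of 1.01 (95% interval 0.898 to 1.13). The fold was 1.01 for Megf10 (0.925 to 1.10), 0.997 for Nrcam (0.897 to 1.11) and 1.04 for Chrdl1 (0.921 to 1.18). It was 0.974 for Mertk (0.812 to 1.17), 0.946 for Gpc6 (0.824 to 1.09) and 0.899 for Gpc4 (0.749 to 1.08). None of these 7 genes was distinguishable from no change at 4 libraries a group, and changes within these intervals could not have been seen. Each interval is for 1 gene by itself, and the threshold adjusted over 12501 genes is stricter. Changes somewhat beyond the intervals could therefore also have been missed.

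In whole cortex the result was similar. In stress INPUT against naïve INPUT, 0 of the 10 genes passed the threshold (limma), against 0.0442% of 13577 genes tested, 0 passed at an unadjusted p under 0.05 (5.03% of all genes), and limma-voom called 0 on both counts. All 10 genes overlapped between groups, and 2.87% of all genes did not. Thbs4 had 0.915, 1.07, 1.73 and 1.10 CPM in stress INPUT, against 1.24 to 2.74 CPM in naïve INPUT. Only stress replicate 10 stood within the naïve range, and the log2 fold change was −0.54 (95% interval −1.15 to 0.08), with an adjusted p of 0.99 by limma and p = 0.14 by the exact permutation test. Without naïve INPUT replicate 14 it was −0.33. The estimate of Thbs1 was −0.23 (95% interval −0.96 to 0.50), and the other 8 log2 fold changes lay between −0.07 for Gpc4 and 0.08 for Sparc. The Thbs4 estimates of −0.51 in IP and −0.54 in INPUT come from the same mice.

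**Figure D4:**
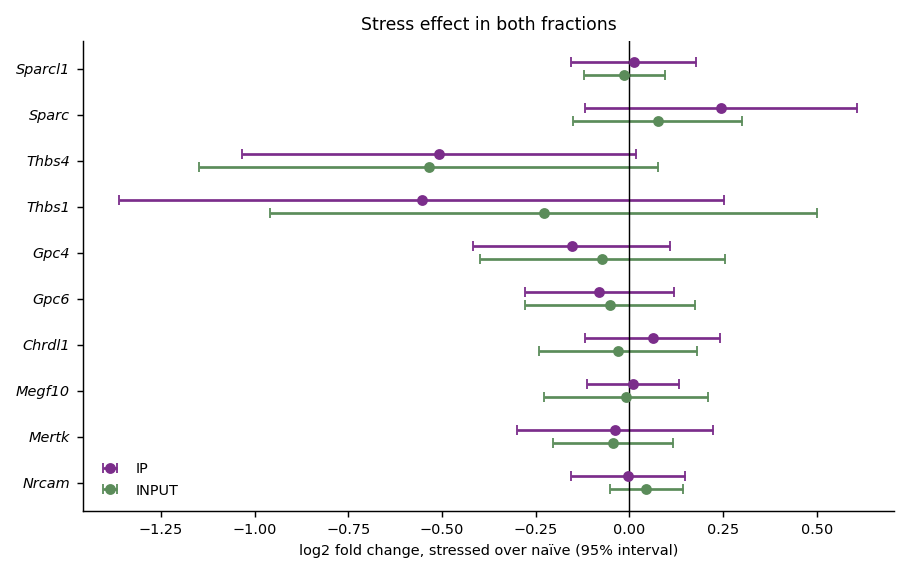
Log2 fold change of stressed over naïve mice (x axis) for each gene in IP (purple) and INPUT (green), with 95% intervals from limma. All 20 intervals span 0, and those of Thbs1, from −1.36 to 0.25 in IP, are the widest.

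The difference between the stress effects in IP and INPUT was tested with all 16 libraries in one limma fit. It passed the threshold for 0 of the 10 genes, against 0.0225% of 13341 genes, and for 0 at an unadjusted p under 0.05 (4.71% of all genes), and limma-voom called 0 on both counts. The estimates ran from −0.32 for Thbs1 (95% interval −1.50 to 0.85) to 0.17 for Sparc (−0.29 to 0.63). Among the 68 relatives and partners in the lists, 0 of 65 tested passed in IP and 0 of 65 in INPUT with limma, with 6 and 8 at an unadjusted p under 0.05, where 8.27% and 5.03% of all genes passed. limma-voom also called 0 in each fraction, with 6 and 6 at an unadjusted p under 0.05.

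Some libraries were the highest or lowest of their group for several of the 10 genes. Naïve IP replicate 11 was the highest of the 4 naïve IP libraries for 8 of the 10 genes, all but Chrdl1 and Nrcam, where 21.0% of 12501 genes were highest in it. It was lowest for 0 of the 10 and for 41.7% of all genes. Its summed level of the 5 mural cell markers was 201 CPM, and the rest of that group had 151 to 165 CPM, most of it from Pdgfrb. Pdgfrb was higher in naïve IP than in naïve INPUT, while the other 3 mural markers tested were lower. The sum is therefore no measure of mural cells in IP, and the part of these cells in the values was not tested. Stress IP replicate 6 was lowest for Gpc4, Gpc6, Chrdl1, Megf10 and Mertk (18.0% of all genes) and highest for Sparc, Sparcl1 and Thbs1 (22.0%). Naïve INPUT replicate 14 was highest for Sparc, Thbs1, Thbs4 and Mertk (30.3% of all genes) and lowest for Sparcl1, Gpc4, Gpc6, Chrdl1 and Megf10 (30.2%). It had the lowest summed levels of its group for astrocyte (5243 CPM), mural cell (113 CPM) and endothelial markers (59.0 CPM). Its summed level of neuronal markers was the highest of the group (11027 CPM), and the part of these shifts in the values was not tested.

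**Figure D5:**
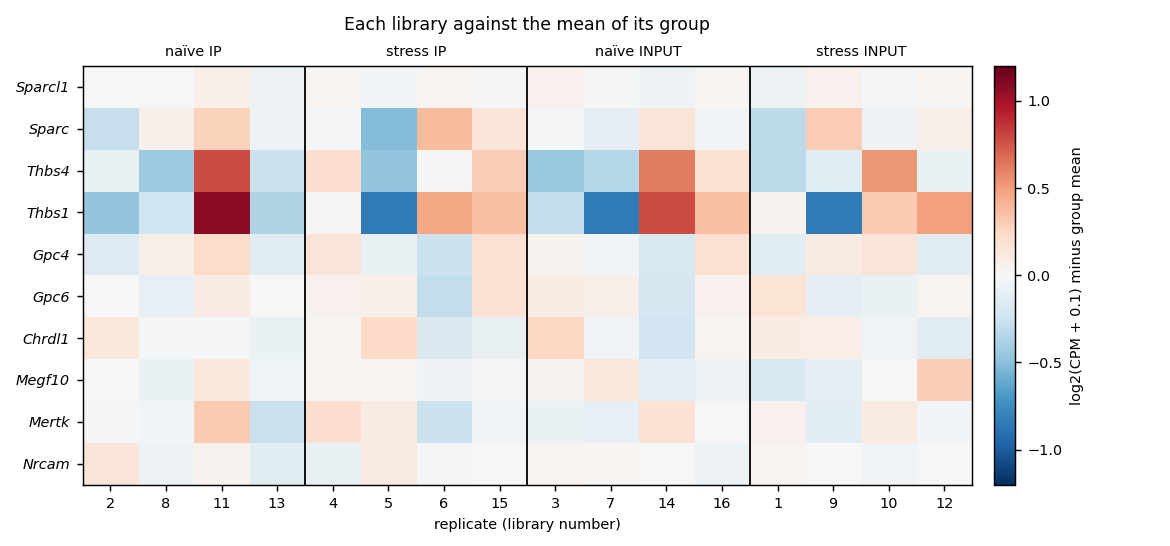
Deviation of each library (columns, by replicate number) from the mean of its group for each gene (rows), as log2(CPM + 0.1), with red above and blue below the mean. The thrombospondins have the strongest colours, and in naïve IP replicate 11, 8 of the 10 genes are the highest of their group.

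Promoters are shown for Thbs4 and Nrcam, the only 2 of the 10 genes with a promoter given and a start site that agrees between annotations. RefSeq promoter sequences (GRCm38.p6) were given for 5 of the 10 genes, Sparc, Thbs4, Gpc4, Mertk and Nrcam, and for Thbs4 and Nrcam the start was the same base as in GENCODE M21. The 250 bases before the start are printed 5′ to 3′ on the gene's strand, for Thbs4 at chr13:92794819-92795068 (minus strand) and for Nrcam at chr12:44328635-44328884 (plus strand). Capitals mark the half-site of nuclear factor I (TTGGC, or GCCAA on the other strand), a family of factors of astrocyte development.
Thbs4: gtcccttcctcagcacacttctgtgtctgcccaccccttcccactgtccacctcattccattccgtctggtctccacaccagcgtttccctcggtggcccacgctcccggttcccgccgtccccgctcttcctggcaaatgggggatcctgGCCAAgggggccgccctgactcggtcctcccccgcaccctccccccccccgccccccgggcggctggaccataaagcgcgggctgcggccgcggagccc
Nrcam: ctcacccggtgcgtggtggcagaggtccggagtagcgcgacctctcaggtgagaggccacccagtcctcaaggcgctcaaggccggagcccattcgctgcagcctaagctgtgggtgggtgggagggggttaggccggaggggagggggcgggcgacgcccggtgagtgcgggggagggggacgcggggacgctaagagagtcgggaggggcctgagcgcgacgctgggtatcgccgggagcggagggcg
The Thbs4 window held 1 such half-site and the Nrcam window 0, where 41.5% of 32851 windows of the same length held at least 1. The SOX core (ACAAT, both strands, in 27.7% of windows) and the half-site of the glucocorticoid receptor (TGTTCT, both strands, in 16.1% of windows) had no match in either. Both windows were rich in G and C, at 70.8% for Thbs4 and 72.4% for Nrcam. A match describes letters only and is no evidence of binding.

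The genes closest to each of the 10 in their pattern over the 16 libraries were found by the root mean square difference of log2(CPM + 0.1), after centring each gene on its mean, among 13340 genes. The pattern is mostly the ratio of IP over INPUT. The closest pairs were Nrcam with Eprs (0.044) and Sparcl1 with Scg3 (0.052), a gene of secretory granules. Mertk was closest to Htra1 (0.10), Gpc6 to Phka1 (0.11), Chrdl1 to the glypican gene Gpc5 (0.11), Gpc4 to Nckap5 (0.13) and Sparc to Plce1 (0.17). The second closest were Ganab for Nrcam, Cnn3 for Sparcl1, Prex2 for Megf10, Amot for Mertk, Grin2c for Gpc6, Tubb2b for Chrdl1, Fmnl2 for Gpc4 and Cst3 for Sparc. The thrombospondins had no neighbour as close. This distance also holds the spread between libraries of a group. Single libraries deviated from their group mean by −0.85 to 1.08 (log2) for Thbs1 and −0.48 to 0.78 for Thbs4. For Thbs4 the nearest were Gpr56 (0.32) and Cbs (0.36), and for Thbs1 they were Bgn (0.39), a matrix proteoglycan, and Mrc2 (0.40), an endocytic receptor for collagen.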

How the data were processed

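RNA was sequenced from 16 libraries, 4 per group, grouped by their sample labels. The authors aligned paired reads to mm10 with STAR, counted uniquely mapped fragments on RefSeq genes with HTSeq, and deposited log2 CPM per library, with a constant worth 0.25 reads at mean library size, corrected for neither gene length nor differences between libraries other than depth. Tool versions are not given in the sources used here. From the floor of −6.40, which stands for 0 reads, reads were recovered, and 100% came out whole within 0.1 reads. No pair of libraries held identical values.

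The tests were two-sided limma fits (version 3.58.1, R 4.3.3, lmFit and eBayes with a variance trend) of log2(CPM + 0.1). Genes entered a fit if their mean exceeded 1 CPM across its libraries, and p was adjusted over all of them (Benjamini-Hochberg, threshold 0.05). A fold change is on this scale and understates changes of low genes. The exact permutation test used the 70 labelings of 8 libraries. Each animal was homogenized by itself according to the methods, but neither the mouse nor its sex is given per library, so neither entered a fit. The methods give a shorter interval after tamoxifen than the labels, which give 4 weeks. GENCODE M21 (GRCm38, the assembly of mm10) gave coordinates and exon lengths. The code was tested on simulated data and ran in Python 3.11.15 (pandas 2.3.3, NumPy 2.4.6, matplotlib 3.10.9).

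The 10 genes and the lists of relatives and markers were chosen with earlier results of these data known. Named are the 10 genes, in each list the genes past the threshold in a stress comparison and those with the highest and the lowest naïve IP ratio, the 2 genes nearest in pattern and the cell type markers. Thbs3, Comp, Chrdl2 and Axl, outside this rule, were named after their values were seen. For 1 list and for 1 nearest gene, a gene that the rule gives is not reported here. As alternatives, the pseudocount was 1 or 0.01, the filter was dropped or raised to 5 CPM, libraries were scaled by quantiles or by their median ratio, array weights, a constant prior variance, limma-voom on recovered reads or one model of all 16 libraries was used, and each library was left out.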

Additional observations from a re-analysis of the deposited data

Results flagged for a closer look

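In 40 groups of 4 libraries (10 genes in 4 groups), Dixon's test compared how far the highest or lowest library stood from the next with the range of the group, and 3 groups were past its 95% critical value, where chance gives about 1 in 20, or 2 of 40. Thbs1 was highest in naïve IP replicate 11, at 5.95 CPM, with 1.96 to 2.33 CPM in the rest of the group. Gpc6 was lowest in naïve INPUT replicate 14, at 10.7 CPM, where the others had 12.9 to 13.2 CPM. Megf10 was lowest in stress IP replicate 6, at 409.5 CPM, where the others had 432 to 436 CPM.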

How the results depend on the processing

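No paired analysis was possible because the library numbers are not shared between groups and the mouse behind each library is not stated. The counts of the 10 genes past the threshold stayed within 1.5 times their value in all 5 comparisons and under each alternative that could be run, with the 9 enriched genes higher in IP throughout for those tested. With a mean above 5 CPM required, genes below it gave no value. The size of the IP ratios depended on the scaling. By the median ratio those of the 9 enriched genes in naïve mice were higher, from 1.57 for Nrcam to 4.54 for Megf10. Some list counts moved as well, beside 42.0% of all genes higher and 42.2% lower. The α2δ list then had 2 higher and 2 lower, neurexins and neuroligins 3 and 3, and glypicans 4 and 1. Glypican receptors and effectors had 1 and 7, and the engulfment pathway 8 and 5. The other lists kept their counts. By quantile normalization Sparcl1 was 0.964 in naïve and 1.02 in stressed mice and Thbs4 4.55 and 4.71. Thbs1 was the one of the 10 genes whose sign or call of IP over INPUT changed. In naïve mice it was 0.112 by the median ratio and 0.464 by quantile normalization, −0.722 with array weights (adjusted p = 0.040 from limma), and −0.871 to −0.25 with single libraries left out. In stressed mice it was 0.243 by quantile normalization, lost the threshold at −0.229 by the median ratio and −0.803 with limma-voom, and at −0.836 both without a variance trend and with all 16 libraries in one model, and was −1.118 to −0.554 with single libraries left out. The threshold was lost there without stress IP replicate 4 or 5 or stress INPUT replicate 1, 10 or 12, and the cause was not tested.

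The remaining changes of sign were of stress effects and their differences, which passed no threshold under any alternative. In IP, Megf10 was −0.0059 by quantile normalization and Nrcam 0.0105 with array weights. In INPUT, Sparcl1 was 0.0077 by quantile normalization and Megf10 0.0788 with array weights. Of the differences between both stress effects, Thbs4 was −0.1414 with a pseudocount of 1, Mertk −0.0031 by the median ratio, and Megf10 −0.0004 by quantile normalization and −0.0557 with array weights. With single libraries left out, the log2 stress effect in IP ranged from −0.0091 to 0.0322 for Sparcl1, −0.1372 to 0.0182 for Gpc6, −0.0161 to 0.1183 for Chrdl1, −0.0155 to 0.052 for Megf10, −0.1269 to 0.0664 for Mertk and −0.0458 to 0.0433 for Nrcam. In INPUT it ranged from −0.0249 to 0.1798 for Sparc, −0.0333 to 0.0064 for Sparcl1, −0.5099 to 0.0534 for Thbs1, −0.1079 to 0.0514 for Chrdl1, −0.1067 to 0.0518 for Megf10 and −0.0797 to 0.0146 for Mertk. The difference between both effects ranged from −0.6071 to 0.0349 for Thbs1, −0.1795 to 0.2896 for Thbs4, −0.144 to 0.0024 for Gpc4, −0.0853 to 0.07 for Gpc6, −0.0416 to 0.117 for Megf10 and −0.0822 to 0.111 for Mertk. Thbs4 had 15 to 55 reads per INPUT library and Thbs1 had 20 to 152 reads per library. In naïve IP, Thbs4 had 358 to 958 reads per library and a coefficient of variation of 42.6%. The part of counting error in the spread of the thrombospondins was not tested, and reads after PCR are not independent molecules.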
